A study of Mus musculus with 3 samples.

Results

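The 10 genes described here are those that mark the macrophages resident in the healthy vessel wall and that encode their scavenger receptors: Lyve1, Folr2, F13a1, Cbr2, Cd163, Mrc1, Stab1, Msr1, Timd4 and Pf4. They were taken by symbol from the gene list of the matrices, and all 10 were found once among 32285 genes. Their transcripts were counted in single cells from the aorta of APOE gene replacement mice, in which mouse Apoe is replaced by human APOE2, APOE3 or APOE4 at its own locus. All mice were males on a C57BL/6J background that received a Western diet with 42% fat and 0.2% cholesterol from 12 weeks of age for 16 weeks, and aortas of chow-fed or wild-type mice were not analysed here. The whole aorta was digested with enzymes, and 1 droplet library was made for each genotype from pooled mice, 6 for APOE2, 5 for APOE3 and 7 for APOE4. With 1 library a genotype the spread between mice is unknown and genotype cannot be told apart from library, so that no test was possible. Every interval given is a 95% interval of counting error only.

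Macrophages of the arterial adventitia that are present before disease take up hyaluronan, dead cells, haemoglobin and modified lipoproteins, and they are known by a shared set of surface receptors and secreted proteins. Lyve1 is a receptor for hyaluronan, and the scavenger receptors Stab1 (stabilin-1) and Msr1 (scavenger receptor A) bind modified lipoproteins and other polyanionic ligands. Mrc1 (the mannose receptor, CD206) binds glycoproteins, Cd163 takes up complexes of haemoglobin and haptoglobin, and Timd4 binds phosphatidylserine on dead cells. Folr2 is the folate receptor beta, F13a1 is the A subunit of coagulation factor XIII, Cbr2 is a carbonyl reductase, and Pf4 is the chemokine CXCL4, which platelets also hold in quantity.

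The promoter windows of 3 genes are shown, those on which the results below turn: Mrc1 and Stab1, the pair with the highest correlation across macrophages and with lower levels in the APOE2 and APOE4 libraries than in APOE3, and Cbr2, the member that was also abundant in smooth muscle cells. Each runs 5′ to 3′ on the gene's strand from 250 bases before to 50 bases after the RefSeq start site (GRCm38.p6): Mrc1 at chr2:14229164-14229463 on the plus strand, Stab1 at chr14:31168592-31168891 and Cbr2 at chr11:120731972-120732271, both on the minus strand. Capitals mark GAGGAA (the core of PU.1 sites) and TGCTGAC (1 arm of the MAF recognition element) on either strand, so that a match on the opposite strand reads TTCCTC or GTCAGCA.
Mrc1 promoter: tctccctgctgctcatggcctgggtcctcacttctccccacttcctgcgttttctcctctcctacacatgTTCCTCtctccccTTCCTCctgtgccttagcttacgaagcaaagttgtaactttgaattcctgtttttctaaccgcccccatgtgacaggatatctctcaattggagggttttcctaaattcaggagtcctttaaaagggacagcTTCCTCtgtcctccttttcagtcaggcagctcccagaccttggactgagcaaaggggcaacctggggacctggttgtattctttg
Stab1 promoter: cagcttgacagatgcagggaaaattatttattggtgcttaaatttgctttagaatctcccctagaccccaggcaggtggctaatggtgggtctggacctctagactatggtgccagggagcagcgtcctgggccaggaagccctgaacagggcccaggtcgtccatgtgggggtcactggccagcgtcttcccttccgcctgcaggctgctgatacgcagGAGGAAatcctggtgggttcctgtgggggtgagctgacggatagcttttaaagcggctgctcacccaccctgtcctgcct
Cbr2 promoter: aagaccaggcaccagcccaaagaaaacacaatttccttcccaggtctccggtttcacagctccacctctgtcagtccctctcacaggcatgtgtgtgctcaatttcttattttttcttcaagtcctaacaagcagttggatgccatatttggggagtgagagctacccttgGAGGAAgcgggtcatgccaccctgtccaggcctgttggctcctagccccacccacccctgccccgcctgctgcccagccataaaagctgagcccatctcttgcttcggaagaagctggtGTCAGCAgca
Mrc1 had 3 matches to GAGGAA, all on the opposite strand, at positions -180, -167 and -35 from the start site. Stab1 had 1 match at position -30. Cbr2 had 1 match to GAGGAA at position -79 and 1 to TGCTGAC at position 41, and no 2 matches overlapped in the windows shown. In the 10 windows of the 8 members with an entry (all but Lyve1 and Msr1), GAGGAA was present in 6, TGCTGAC in 2 and the E-box CACGTG in 0, whereas 28.3%, 4.67% and 7.15% of all 32851 windows held them. Counted by gene, 5, 2 and 0 of the 8 members held them, against 31.3%, 5.28% and 8.09% of 27025 genes. The genes differ in size: on GRCm38 the annotation places F13a1, the longest, at chr13:36867178-37050244 in 15 exons and Pf4, the shortest, at chr5:90772435-90773383 in 3 exons.

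Of 28506 deposited barcodes, 26757 passed the filter of at least 200 detected genes and under 20% mitochondrial UMIs, with 6737 to 11772 cells and a median of 12047 to 17618 UMIs a cell in the 3 libraries, which shared 14 to 27 barcodes in pairs. Clustering without the 10 genes and naming from separate markers gave 799 macrophage-like cells, 475 in APOE2, 148 in APOE3 and 176 in APOE4, or 4.04%, 2.20% and 2.13% of the cells. They came from 2 clusters: C14 with 656 cells and a median of 8448 UMIs, led by Ccl4, Mrc1 and the complement genes C1qc, C1qa and C1qb, and C22 with 143 cells and a median of 1062 UMIs, led by Pf4, Aif1 and Ctla2b. All 12 macrophage markers had UMIs in each library, with a summed level of 29227 in APOE2, 22705 in APOE3 and 19970.5 in APOE4 CPM (a gene's UMIs per 1000000 UMIs of the cells summed). Transcripts of other cells were also present in them: all 10 smooth muscle markers summed to 7237 in APOE2, 14122 in APOE3 and 10336 in APOE4 CPM, the 7 erythroid markers to 1780.4 in APOE2, 17.4 in APOE3 and 123 in APOE4 CPM with Alas2 and Slc4a1 at 0 in APOE3 and APOE4, and the 6 platelet markers to 2.62 in APOE2, 34.0 in APOE3 and 163 in APOE4 CPM. Some member results below are also given without the cells of 100 or more smooth muscle marker UMIs, without C22 or without platelet marker cells. A result given without such a value was not always unmoved by these settings.

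Of the 10 genes, 5 were found almost wholly in macrophage-like cells. Over the 3 libraries these cells held 95.5% of the 7617 Mrc1 UMIs, 95.6% of Msr1, 93.8% of Cd163, 92.9% of Folr2 and 90.6% of Pf4, although they were 2.99% of the cells. Stab1 with 82.5%, Timd4 with 81.4% and F13a1 with 79.7% were also mostly in macrophages. Of the remainder, the largest part lay in smooth muscle cells for F13a1 (13.4%) and Timd4 (9.76%) and in endothelial cells for Stab1 (6.84%). Lyve1 had 54.4% of its UMIs in macrophages and 34.0% in smooth muscle cells, and Cbr2 had 3.12% in macrophages and 86.0% in smooth muscle cells. These shares also follow the number of cells in each class, since smooth muscle-like cells were 68.3% of all cells.

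**Figure D1:**
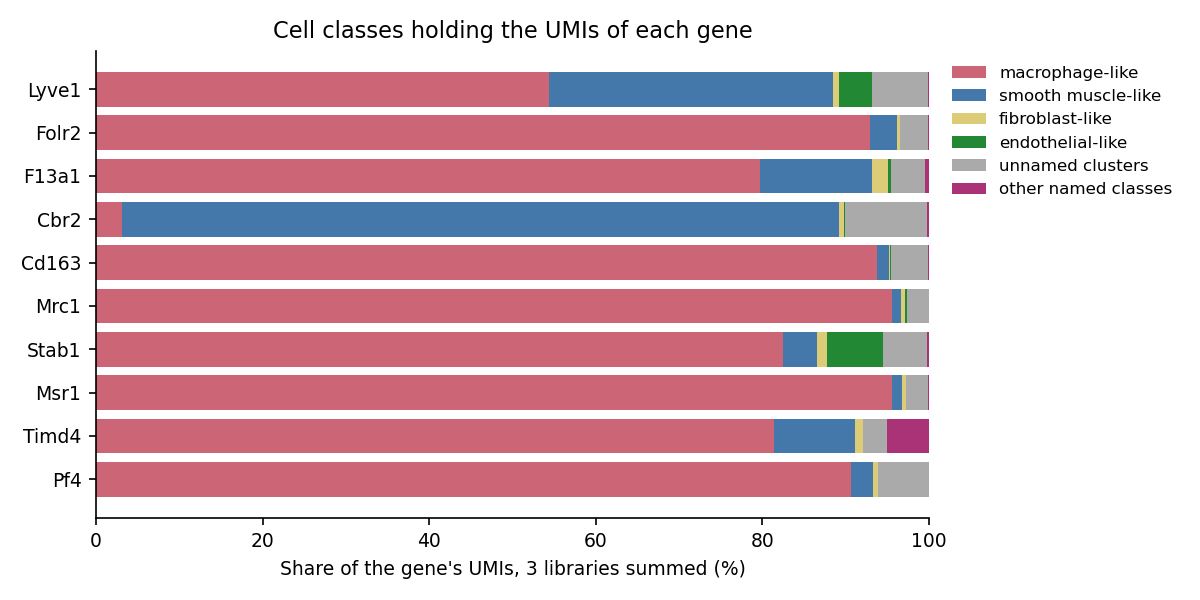
Share of the UMIs of each gene (horizontal axis, percent, 3 libraries summed) held by each cell class (colours), 1 bar per gene. Smooth muscle-like cells hold 86.0% of Cbr2 and 34.0% of Lyve1 UMIs, while macrophage-like cells hold more than any other class for the other 8 genes and for Lyve1.

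Among the receptors, Mrc1 was at 838 in APOE2 (811 to 865), 1575 in APOE3 (1506 to 1646) and 956 in APOE4 (907 to 1006) CPM in macrophage-like cells. The level was highest in APOE3 and the 3 intervals did not overlap. In smooth muscle-like and fibroblast-like cells Mrc1 was at most 1.6 CPM in any library. Stab1 was at 295 in APOE2 (279.7 to 311), 604 in APOE3 (562 to 649) and 275 in APOE4 (249 to 303) CPM, again highest in APOE3, with the APOE2 and APOE4 intervals overlapping. Cd163 was at 240.0 in APOE2 (226 to 255), 316 in APOE3 (286 to 349) and 210.3 in APOE4 (188 to 235) CPM, in the same order of APOE3 above the other libraries. The 2 lower libraries differed little, and their intervals overlapped. Timd4 was at 40.5 in APOE2 (34.9 to 46.8), 83.1 in APOE3 (67.9 to 101) and 50.4 in APOE4 (39.7 to 63.1) CPM and rested on 186, 105 and 76 UMIs. It, too, was highest in APOE3. Lyve1 was at 419.9 in APOE2 (401 to 439), 312 in APOE3 (282 to 345) and 204 in APOE4 (182 to 228) CPM, highest in APOE2 and lowest in APOE4 with no overlap. Msr1 was at 109 in APOE2 (99.9 to 119), 84.6 in APOE3 (69.4 to 102) and 69.0 in APOE4 (56.4 to 83.6) CPM, with the APOE3 interval overlapping both others.

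Of the other members, the folate receptor gene Folr2 was at 339 in APOE2 (323 to 356), 446 in APOE3 (410.0 to 484) and 348 in APOE4 (319 to 379) CPM and was highest in APOE3. F13a1 was at 1132 in APOE2 (1101 to 1163), 1183 in APOE3 (1124 to 1245) and 883 in APOE4 (837 to 932) CPM, lower in APOE4 than in the other libraries, whose intervals overlapped. Cbr2 was at 416 in APOE2 (397 to 435), 461 in APOE3 (424 to 500.1) and 439 in APOE4 (406 to 474) CPM, and its 3 intervals overlapped. Pf4 was at 1607 in APOE2 (1571 to 1644), 2049 in APOE3 (1971 to 2129.8) and 2087 in APOE4 (2015 to 2161) CPM, lower in APOE2 than in APOE3 and APOE4. Thus 5 genes (Folr2, Cd163, Mrc1, Stab1 and Timd4) had the APOE3 library clear of the intervals of both others, Lyve1 had APOE2 clear of both, and Msr1, Cbr2, F13a1 and Pf4 did not separate 1 library upward from the other 2. Of the 6697 genes with at least 50 UMIs in every pair of libraries, 4% had APOE3, and 4.27% had APOE2, clear above both others in this way. Counting intervals narrow as UMIs rise, and these genes were not matched to the members in UMI number.

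**Figure D2:**
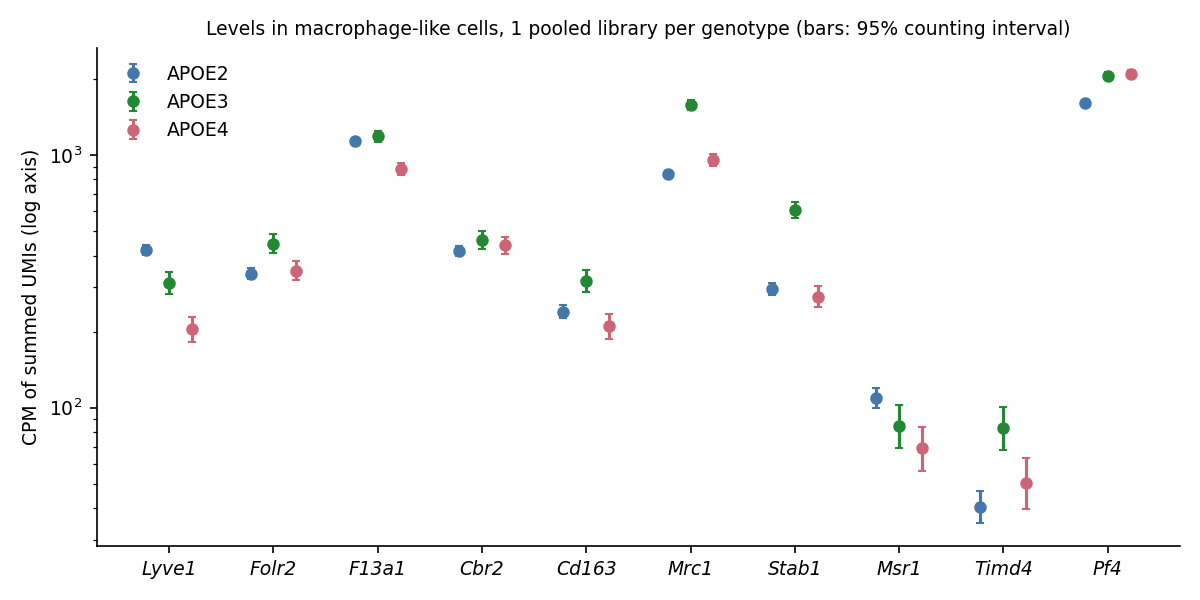
Level of each gene in macrophage-like cells by library (vertical log axis, CPM of summed UMIs), with exact Poisson 95% intervals of counting error as bars. Mrc1 and Stab1 are highest in APOE3, at 1575 and 604 CPM, and Lyve1 is highest in APOE2, at 419.9 CPM.

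APOE2 macrophage-like cells had lower levels of 8 of the 10 genes than APOE3 cells, with a median log2 ratio of -0.37 against -0.026 over all genes with at least 50 UMIs in both libraries together. Of the 9018 such genes, 4730 were lower. The interval lay below 0 for 7 members and for 1329 of all these genes, which were not matched to the members in UMI number. Stab1 and Timd4 were 2-fold or more lower, which makes 2 of 10 members, where 2.36% of the 9018 genes were 2-fold lower. None, 0 of 10 members, was 2-fold higher, where 3.48% of genes were. The Stab1 log2 ratio was -1.03 (-1.16 to -0.90), or 2.05-fold, and that of Timd4 was -1.03 (-1.39 to -0.68). Mrc1 followed at -0.91 (-0.99 to -0.83), short of 2-fold. Folr2 at -0.40 (-0.54 to -0.25), Cd163 at -0.40 (-0.56 to -0.23), Pf4 at -0.35 (-0.42 to -0.29) and Cbr2 at -0.15 (-0.28 to -0.013) were lower by less. The F13a1 ratio was -0.064 (-0.15 to 0.020), an interval that holds 0. The 2 genes with higher levels in APOE2 were Lyve1, at 0.43 (0.27 to 0.59) or 1.34-fold, and Msr1, at 0.37 (0.064 to 0.68). The 12 macrophage markers together were also higher there, at 29227 CPM in APOE2 and 22705 CPM in APOE3, so that a higher level was not particular to these 2 genes. Without the cells of 100 or more smooth muscle marker UMIs the ratio was -1.17 for Stab1, -1.09 for Timd4 and -1.03 for Mrc1, which was then past 2-fold as well. Over 14 alternative settings Stab1 was past 2-fold in 13 and Timd4 in 11.

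A subcluster led by Spp1, Mmp12 and Adgrl3 (M1 below) held 23.7% of the macrophages divided in APOE2 against 13.4% in APOE3 and 16.1% in APOE4, and the members were low in it. Spp1 stood at 8177 in APOE2, 53.0 in APOE3 and 33.8 in APOE4 CPM there, so that the shares set unlike cells side by side. Without the cells of M1 the APOE2 to APOE3 log2 ratio came to -0.85 for Stab1, -0.70 for Timd4 and -0.67 for Mrc1, so that 0 members were past 2-fold. The median over the members was -0.18 and Cbr2 turned to 0.12. Lyve1, in contrast, was then further above APOE3, at 0.72. Over the 14 alternative settings the Lyve1 ratio ranged from 0.088, with the mean of each cell's CPM, to this 0.72.

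APOE4 macrophage-like cells had lower levels than APOE3 cells for 9 of the 10 genes, with a median log2 ratio of -0.51 against -0.036 over all genes. Of the 6715 genes with enough UMIs, 3628 were lower. The interval lay below 0 for 7 members and for 901 of all these genes, again not matched in UMI number. The 12 macrophage markers summed to 19970.5 CPM in APOE4 and 22705 CPM in APOE3. Stab1 was the 1 of 10 members 2-fold or more lower, where 1.71% of 6715 genes were, and 0 of 10 were 2-fold higher, where 2.71% were. Its log2 ratio was -1.13 (-1.31 to -0.96), or 2.20-fold, and it stayed past 2-fold in 14 of 14 alternative settings, from -1.36 to -1.04. Mrc1 at -0.72 (-0.82 to -0.62), Timd4 at -0.72 (-1.17 to -0.28), Lyve1 at -0.61 (-0.83 to -0.39) and Cd163 at -0.59 (-0.81 to -0.37) were 1.50- to 1.65-fold lower. F13a1 at -0.42 (-0.53 to -0.31) and Folr2 at -0.36 (-0.53 to -0.18) were lower by less, and the intervals of Msr1 at -0.30 (-0.70 to 0.11), Cbr2 at -0.071 (-0.23 to 0.092) and Pf4 at 0.026 (-0.049 to 0.10) held 0. The Pf4 ratio kept its sign in 7 of the 14 settings. Both comparisons use the same APOE3 cells, so that a high count in that library lowers both ratios.

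Set directly against each other, APOE4 and APOE2 macrophage-like cells had a median log2 ratio of -0.031 over the members and -0.023 over all genes. Lyve1 was the 1 of 10 members 2-fold or more lower in APOE4, where 3.32% of 9115 genes were, and 0 of 10 were 2-fold higher, where 2.89% were. Its log2 ratio was -1.04 (-1.22 to -0.87) and it was past 2-fold in 11 of 14 alternative settings. Msr1 at -0.66 (-0.98 to -0.36) and F13a1 at -0.36 (-0.45 to -0.27) were also lower in APOE4. So was the summed level of the 12 macrophage markers, at 19970.5 CPM in APOE4 and 29227 CPM in APOE2. Pf4 at 0.38 (0.32 to 0.44) and Mrc1 at 0.19 (0.10 to 0.28) were higher in APOE4, though Mrc1 changed sign in 2 of the 14 settings. Stab1 at -0.10 (-0.26 to 0.059), Folr2 at 0.038 (-0.11 to 0.18), Cbr2 at 0.078 (-0.052 to 0.21) and Timd4 at 0.31 (-0.091 to 0.71) had intervals that held 0. Cd163 was at -0.19 (-0.38 to -0.0095).

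**Figure D3:**
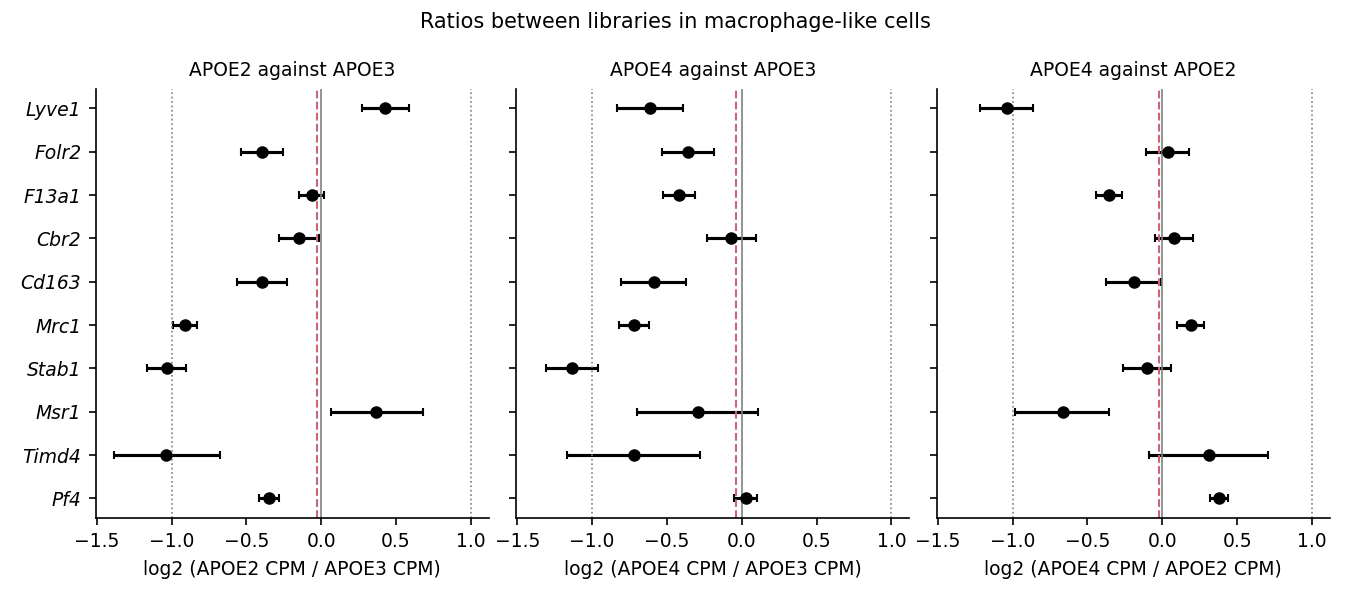
Log2 ratio of each gene between 2 libraries in macrophage-like cells (horizontal axis, 1 panel per comparison), with exact conditional binomial 95% intervals as bars the median of all genes as a dashed line and 2-fold as dotted lines. Stab1 lies at -1.03 and -1.13 against APOE3 and at -0.10 between APOE4 and APOE2, and Lyve1 lies at -1.04 there.

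The share of macrophages with at least 1 UMI of a gene was compared after each cell was thinned to 3000 UMIs, which left 377 APOE2, 108 APOE3 and 124 APOE4 cells and took out 98, 40 and 52 shallower ones. Stab1 was detected in 46.2% in APOE2, 70.4% in APOE3 and 50% in APOE4. Mrc1 was detected in 70.0% in APOE2, 84.3% in APOE3 and 73.4% in APOE4, and Folr2 in 35.5% in APOE2, 53.7% in APOE3 and 43.5% in APOE4. Timd4 was detected in 9.28% in APOE2, 17.6% in APOE3 and 6.45% in APOE4. The share of cells was thus highest in APOE3 for each of these genes, as the level was. Of them, only Stab1 had an APOE3 interval (60.8% to 78.8%) clear of both others. For Mrc1 and Folr2 it overlapped that of APOE4, and for Timd4 those of both. These intervals treat the cells of 1 pooled library as independent, and the share of all genes separated in this way was not computed. Among the other members, Msr1 was detected most often in APOE2, at 26.0%, and Pf4 in APOE4, at 81.5%. Lyve1 was detected in 29.4% in APOE2, 32.4% in APOE3 and 28.2% in APOE4, a narrow range for the gene with the widest gap in level between APOE2 and APOE4. Its UMIs were held by few cells: the 10% of macrophages with the most Lyve1 carried 79.1%, 64.6% and 71.8% of them in APOE2, APOE3 and APOE4. With the cells ranked anew for each gene over the 3 libraries, the top 10% carried 77.0% of Lyve1, 41.8% of Mrc1 and 45.8% of Stab1 UMIs. Without thinning, Stab1 was detected in 63.2%, 73.6% and 55.7% of macrophages and Lyve1 in 31.2%, 43.2% and 31.8%. At 1000 UMIs a cell, Stab1 was in 26.1% of macrophages against 0.0220% of smooth muscle cells and 0.0358% of fibroblasts, classes that should lack it, with median depths of 7501, 15910 and 10565 UMIs before thinning.

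The Pf4 values were split by cluster because platelets carry this transcript. In C14, Pf4 was at 1615, 1949 and 1775 CPM in APOE2, APOE3 and APOE4, and the platelet markers summed to 2.76, 4.12 and 2.77 CPM. In the shallow cluster C22, Pf4 was at 1475, 4484 and 9110.0 CPM, and the platelet markers (Ppbp, Itga2b, Gp9, Gp1bb, Gp6 and Treml1) summed to 0, 761 and 3775 CPM, or 0, 38 and 242 UMIs. The 2 values were thus highest in the same library of that cluster. In all, 10 macrophage-like cells held 2 or more platelet marker UMIs, 6 of them in APOE4, where Pf4 was at 29097 CPM. In the remaining macrophages Pf4 was at 1580.1, 2017 and 1825 CPM, and the log2 ratio of APOE4 to APOE2 was 0.21 in place of 0.38. Without C22 it was 0.14. Without the 10 platelet marker cells the Pf4 interval of APOE3 (1940 to 2097 CPM) was clear of APOE2 (1544 to 1617) and APOE4 (1757 to 1895).

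Cbr2 was the member shared with smooth muscle. In smooth muscle-like cells it was at 267 in APOE2 (264 to 269.9), 278 in APOE3 (275 to 281) and 258 in APOE4 (255 to 261) CPM, a level between that of macrophages and that of fibroblasts, which had 16.5 in APOE2, 23.9 in APOE3 and 20.7 in APOE4 CPM. After thinning to 1000 UMIs, 23.3% of smooth muscle cells, 28.8% of macrophages and 0.679% of fibroblasts held a Cbr2 UMI. Before thinning the shares were 91.3%, 57.8% and 8.87%. All 11 smooth muscle-like clusters had the transcript, from 167 CPM in C10 to 382 CPM in C16. The log2 ratio in smooth muscle cells was -0.058 for APOE2 and -0.11 for APOE4 against APOE3, both small beside the gap between classes. The APOE4 to APOE3 ratio of Pf4, 0.026 with all cells, came to -0.14 without the platelet marker cells and -0.13 without C22.

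The Cbr2 UMIs of each class were set beside the smooth muscle transcripts it carried. Per 1000 UMIs of the 10 smooth muscle markers there were 4.74 Cbr2 UMIs in smooth muscle cells, 4.0 in fibroblasts and 47.3 in macrophages. In the 722 macrophages with under 100 smooth muscle marker UMIs Cbr2 was at 463 CPM, against 428 CPM in all 799. In fibroblasts the ratio was between 3.89 and 4.19 in each of the 3 libraries. The source of the Cbr2 transcripts in macrophages and in fibroblasts was not tested.

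Lyve1 had another source in the endothelium. The 163 APOE2 endothelial-like cells held 188 Lyve1 UMIs in 10 cells, of which 184 lay in 6 cells. In those 6 cells Lyve1 was at 2652 CPM, beside 13189 CPM of Ccl21a, 1326 CPM of Mmrn1, 533 CPM of Flt4 and 375 CPM of Prox1, which are markers of lymphatic endothelium. Mrc1 and the macrophage markers Cd68, Adgre1 and Lyz2 had 0 UMIs there, which allows up to 53.2 CPM each. Ccl21a had 0 UMIs in the other 157 endothelial cells of APOE2. Flt4, Prox1 and Mmrn1 were not confined to the 6 cells. In the other 157, Flt4 had 33 UMIs in 21 cells, Prox1 32 in 2 cells and Mmrn1 46 in 1 cell, or 24.0, 23.3 and 33.5 CPM. The 35 endothelial cells of APOE3 had 0 Lyve1 UMIs and the 37 of APOE4 had 1.

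Smooth muscle-like cells carried Lyve1 at 3.99 in APOE2 (3.65 to 4.36), 4.64 in APOE3 (4.22 to 5.09) and 6.73 in APOE4 (6.23 to 7.24) CPM, highest in the library in which macrophages had the least. These 1645 UMIs were spread thinly, with at least 1 in 7.48% of the cells and at most 9 in a cell. After thinning to 1000 UMIs the share was 0.551%, against 0.107% in fibroblasts and 17.5% in macrophages. The mix of members differed from that of macrophages: Lyve1 had 1645 UMIs in smooth muscle cells beside 92 of Folr2 and 88 of Mrc1. In macrophages Lyve1, Folr2 and Mrc1 had 2629, 2645 and 7275 UMIs. The source of the Lyve1 UMIs in smooth muscle cells was not tested. The Lyve1 level in smooth muscle cells was highest in cluster C13, at 12.3 CPM, and lowest in C0, at 2.31 CPM. The order of libraries was not the same in every cluster: in C13 Lyve1 was at 20.4 CPM in APOE2, 8.08 in APOE3 and 3.84 in APOE4, and in C0 at 1.59, 2.28 and 3.07. F13a1 was likewise present in smooth muscle cells at 3.91 in APOE2, 3.98 in APOE3 and 4.56 in APOE4 CPM, in 4.14% of the cells before thinning.

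Stab1 was also found in endothelial-like cells, at 112 in APOE2 (95.1 to 130.3), 79.5 in APOE3 (48.6 to 123) and 155 in APOE4 (104 to 223) CPM, on 161, 20 and 29 UMIs. It was detected in 25.1% of these 235 cells before thinning and in 9.66% after thinning to 1000 UMIs. The APOE3 library was the lowest here and the highest in macrophages, though the 3 endothelial intervals overlapped. Timd4 had 23 UMIs in 3 B lymphocyte-like cells, with 14, 4 and 5 UMIs. Each of these cells had UMIs of 5 of the 12 macrophage markers and of 0 or 1 of the 9 B lymphocyte markers. The other B lymphocyte-like cells had 0 Timd4 UMIs. In smooth muscle-like cells Timd4 had 44 UMIs, in 43 of 18277 cells. Mrc1 had 19 UMIs in endothelial cells, 16 of them in 1 cell.

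The members were found together in the same macrophages. Of the 609 cells thinned to 3000 UMIs, 8 held all 10 genes, 65 held 0 and the median cell held 5, with a median of 4 in APOE2, 6 in APOE3 and 5 in APOE4. Nearly all cells with Lyve1 held F13a1, 180 of 181 or 99.4%, against 40.9% of the cells without Lyve1. They also held Mrc1 in 97.8%, Cbr2 in 87.3% and Folr2 in 77.9% of cases. Of the 62 cells with Timd4, 77.4% held Lyve1, 83.9% Folr2 and 90.3% F13a1. Msr1 was the least tied to the others: 32.6% of cells with Lyve1 and 19.4% of cells without it held Msr1, and for Stab1 the shares were 26.9% and 19.5%. These are cells of 3 libraries and not replicates, and the number of genes still detected in a thinned cell sets part of every share.

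**Figure D4:**
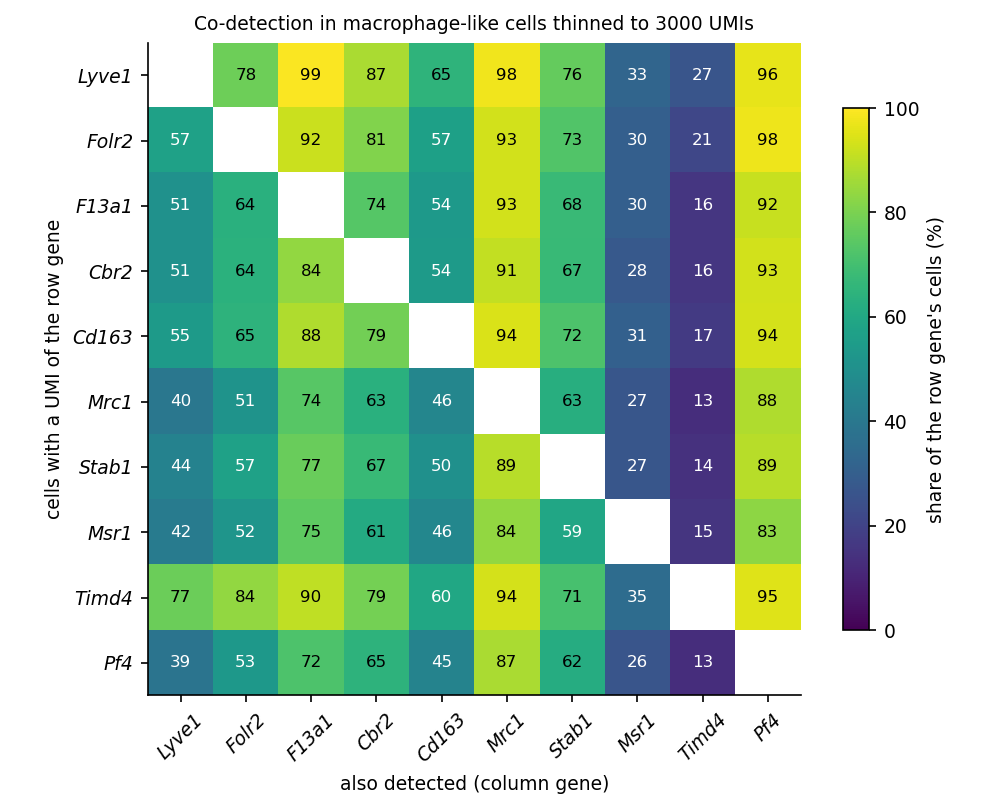
Co-detection in 609 macrophage-like cells thinned to 3000 UMIs: each square gives the share of the row gene's cells (percent, colour scale) that also hold the column gene. The Lyve1 row is high for F13a1 (99.4%) and Mrc1 (97.8%) and low for Timd4 (26.5%) and Msr1 (32.6%).

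Across the macrophage-like cells of each library, log-scaled counts of the members were correlated, here given as Pearson r averaged over the 3 libraries (475, 148 and 176 cells). The cells were not thinned and differed in depth, with a median of 8448 UMIs in C14 and 1062 in C22. Cells of the same library also shared its contaminating transcripts. The part of depth and of these transcripts in the r values was not tested. The highest pair was Mrc1 with Stab1 at 0.67, followed by Folr2 with Cbr2 at 0.65, F13a1 with Mrc1 at 0.63 and Lyve1 with F13a1 at 0.63. The lowest was Msr1 with Timd4, at 0.15. Beyond the members, the gene most like Mrc1 and Stab1 among 9632 was Slc9a9, an endosomal sodium/proton exchanger, at 0.65 and 0.59, with the transcription factor gene Maf next at 0.64 and 0.54. Maf was also the gene most like F13a1, at 0.58. Ltc4s, leukotriene C4 synthase, was the closest to Lyve1 at 0.50 and to Folr2 at 0.57, and Selenop, the selenium carrier, the closest to Cbr2 at 0.56. Cd163 was closest to Wwp1 at 0.54, Timd4 to Fcna at 0.47 and Pf4 to Lyz2 at 0.57, while 0 genes reached 0.3 in every library for Msr1.

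Macrophages with under 100 smooth muscle marker UMIs were divided again, with the members left out of the features, into 7 subclusters numbered M0 to M6. The levels in them are a description, since the same cells made the groups. Of the 10 members, 8 were highest in M4 (Stab1 was highest in M3 and Pf4 in M2, though Pf4 in APOE2, where M2 had 0 platelet marker UMIs, was at 5619 CPM in M4 and 2787 CPM in M2). M4 held 32 cells (22 in APOE2, 3 in APOE3 and 7 in APOE4) led by Retnla, Saa3, Cd209d, Cd209f and Fcna, and in it Lyve1 was at 2233 CPM, F13a1 at 4260.2, Folr2 at 1693, Cbr2 at 1445 and Timd4 at 311. These few cells held 44.4% of the Lyve1 and 46.8% of the Timd4 UMIs of all macrophages divided, but 10.4% of Stab1 and 14.3% of Mrc1. The 12 macrophage markers together were also highest in M4, at 42921 CPM against 39897.5 in M2 and 33955 in M0. A high level there was thus not particular to members. Cd163 (625 CPM in M4, 595 in M3) and Mrc1 (2010 and 1929 CPM) were near their M3 levels. The share of all genes highest in M4 is not given here. The largest subcluster, M0 (297 cells led by Ccl12, Bmp2, Hpgd, Txnip and Gpr183), had intermediate levels, with Lyve1 at 481, Folr2 at 517, Mrc1 at 1738 and Stab1 at 577 CPM. The division depended on the resolution: at 0.3 in place of 0.5 the subcluster highest in Lyve1 held 93.2% of its UMIs in 339 cells, and at 1.0 it held 83.4% in 135 cells.

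The members were low in M1, 145 cells led by Spp1, Mmp12, Adgrl3, Il7r and Lgals3, of which 101 were from APOE2, 18 from APOE3 and 26 from APOE4. Lyve1 was at 23.3 CPM there, Cd163 at 16.8, Folr2 at 68.8, F13a1 at 173 and Mrc1 at 259.6 CPM. Msr1 did not share this pattern, at 104 CPM in M1 and 124 CPM in M0, so that M1 held 29.9% of the Msr1 but 1.80% of the Lyve1 UMIs. At a resolution of 1.0, which gave 10 subclusters, 1 of them, with 41 cells, had 0 UMIs of Lyve1, F13a1, Cbr2 and Cd163, which allows at most 7.96 CPM by the limit of 3 counts. Mrc1 was at 167, Stab1 at 114 and Msr1 at 87.5 CPM in the same cells, which were thus without UMIs of several resident genes but not without scavenger receptor transcripts. M5, 22 cells led by Hist1h2ap, Hist1h2ae, Hist1h2ab, Hist1h1b and the cell cycle gene Top2a, had Mrc1 at 954 and Lyve1 at 67.9 CPM. M6, 10 cells led by Dcn, Mgp, Mmp3, Lama2 and Igfbp5 with a fibroblast marker level of 14165 CPM, had Mrc1 at 713 CPM.

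The remaining subclusters were shallow. M2, 134 cells with a median of 1016 UMIs and led by Myl9, Myh11, Acta2, Tagln and Tpm2, had Pf4 at 5479 CPM, against 2775 CPM in M0. By library Pf4 in M2 was at 2787 in APOE2, 5471 in APOE3 and 9122 in APOE4 CPM, beside platelet markers summing to 0, 869.8 and 3658 CPM. In APOE2, with 0 platelet marker UMIs in M2, its level was near the 2522 CPM of M0. M3, 82 cells with a median of 2229.5 UMIs and 7.35% mitochondrial UMIs (against 1.29% in M0), was led by Gm26917, Phlpp1, Lars2, Arhgap26 and Il31ra. The 12 macrophage markers summed to 6451 CPM in M3 and 33955 CPM in M0, so that a lower level there was not particular to members. In M3 the members split: the log2 ratio to M0 was -3.82 for Pf4, -2.52 for Folr2, -2.20 for Cbr2 and -1.48 for Lyve1. It was 0.15 for Mrc1, 0.35 for F13a1, 0.39 for Cd163 and 0.35 for Stab1. The ratios of Msr1, at -0.60 (-1.33 to 0.055), and Timd4, at 0.25 (-0.60 to 1.00), had intervals that held 0. Across the 10 members the ratio and the length of the gene from start to end had a Spearman rho of 0.62. The rho was -0.60 for M2, -0.19 for M4 and 0.10 for M1 and for M5. Not every gene followed the order of length in M3: Msr1, with 60989 bases, had a lower ratio than the shorter Cd163 and Stab1. The part of gene length and of mitochondrial content in the M3 values was not tested.

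**Figure D5:**
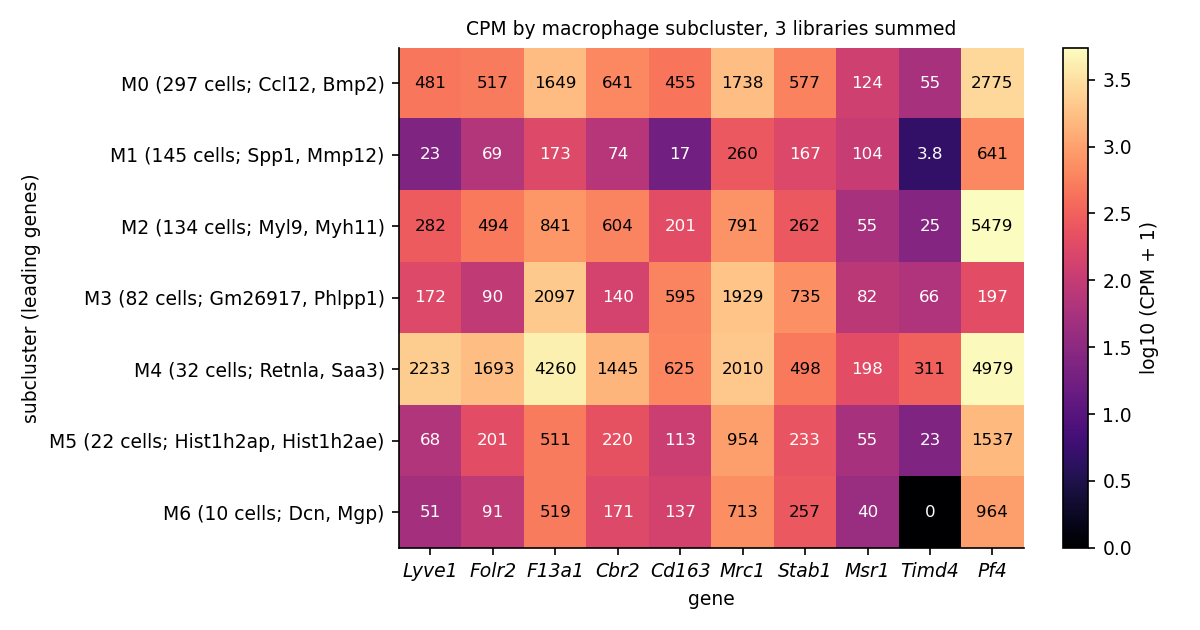
Level of each gene in 7 subclusters of macrophage-like cells (rows, with their cell numbers and leading genes), 3 libraries summed, as log10 of CPM plus 1 (colour scale). M4 holds the highest levels of Lyve1 (2233 CPM) and F13a1 (4260.2 CPM), and M1 the lowest of both among the 7 (23.3 and 173 CPM).

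The differences between libraries were looked at again within M0, which had 174 APOE2, 61 APOE3 and 62 APOE4 cells. The M0 cells of the libraries were not alike in other transcripts. Macrophage markers summed to 37232 in APOE2, 32340 in APOE3 and 26160.5 in APOE4 CPM, and erythroid markers to 5361, 9.58 and 127 CPM. Their part in the M0 values was not tested. Stab1 was at 488 in APOE2, 904 in APOE3 and 481 in APOE4 CPM. Relative to APOE3 its log2 ratio stood at -0.89 (-1.06 to -0.72) in APOE2 and at -0.91 (-1.14 to -0.68) in APOE4, still below 0 but less than 2-fold. Mrc1 was at 1528 in APOE2, 2393 in APOE3 and 1639.6 in APOE4 CPM, with ratios of -0.65 (-0.75 to -0.55) and -0.55 (-0.68 to -0.42). Lyve1 was at 592 in APOE2, 374 in APOE3 and 272 in APOE4 CPM, and its APOE4 to APOE2 ratio was -1.12 (-1.40 to -0.86). As in all macrophage-like cells, Stab1 and Mrc1 were highest in APOE3 and Lyve1 was highest in APOE2 and lowest in APOE4. Timd4 was at 51.3 in APOE2, 84.3 in APOE3 and 35.3 in APOE4 CPM on 72, 44 and 17 UMIs. Over all genes with enough UMIs in M0 the median ratio to APOE3 was -0.025 for APOE2 and -0.052 for APOE4. In M4 Lyve1 was at 2572 in APOE2, 2291 in APOE3 and 1189 in APOE4 CPM, again lowest in APOE4, but on 3 APOE3 and 7 APOE4 cells.

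Other lists of macrophage genes were set beside the members, counting genes with at least 50 UMIs in the pair of libraries, against a median over all genes of -0.026 for APOE2 and -0.036 for APOE4 relative to APOE3. Over all such genes, 4288 of 9018 were higher in APOE2 and 3087 of 6715 in APOE4 than in APOE3. In the list of 20 other resident macrophage genes, 13 were higher and 7 lower in APOE2 than in APOE3, with a median log2 ratio of 0.22, and 6 of 19 were higher and 13 lower in APOE4, with a median of -0.41. Like Stab1 and Mrc1, Maf was highest in APOE3, at 338, 668 and 497 CPM in APOE2, APOE3 and APOE4, as were Selenop, at 1412, 2016 and 1350.4 CPM, and the chemokine gene Ccl24, at 79.8, 262 and 162 CPM. Wfdc17 was at 781, 552 and 527 CPM, highest in APOE2 as Lyve1 was. Its APOE4 to APOE3 log2 ratio was -0.068 (-0.22 to 0.081), an interval that holds 0. Cd5l had 317 UMIs in APOE2 and 0 in APOE3. Its APOE2 level was 29.1-fold the limit of 3 counts in APOE3, and the exact interval of the log2 ratio begins at 4.56.

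Of 20 other scavenger and clearance receptor genes, 11 had enough UMIs in APOE2 and APOE3, with a median log2 ratio of -0.10, and 9 in APOE4 and APOE3, with a median of -0.20. Mertk, a receptor for the uptake of dead cells, resembled Stab1 in its order, at 161, 264 and 123 CPM in APOE2, APOE3 and APOE4 and a log2 ratio of -1.10 for APOE4 to APOE3. The lipoprotein scavenger receptor gene Cd36 was at 266, 285 and 237 CPM, Cxcl16 at 362, 257 and 348 CPM and Itgav at 241, 205 and 261 CPM. Olr1, which encodes the oxidised lipoprotein receptor LOX-1, had 57 UMIs in APOE2 and 0 in APOE3. Its APOE2 level was 5.24-fold the same limit, and the exact interval of the ratio begins at 2.04 on the log2 scale. The scavenger receptors of this list thus did not share 1 order of libraries.

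Among the haemoglobin, haem and iron genes, which act on the ligand that Cd163 takes up, the median log2 ratio was 0.28 for APOE2 and -0.095 for APOE4 relative to APOE3, over 9 genes each. Hmox1, haem oxygenase, was at 405, 664 and 527 CPM in APOE2, APOE3 and APOE4 and the iron exporter gene Slc40a1 at 11.3, 62.5 and 16.6 CPM, both highest in APOE3 as Cd163 was. The ferritin genes Fth1 and Ftl1 were highest in APOE2, at 13476, 8977 and 8407 CPM and 9746, 7213 and 6948 CPM, and Blvrb at 366, 331 and 344 CPM and Slc11a1 at 100.1, 82.3 and 55.0 CPM were also highest there. Erythroid transcripts were highest in the APOE2 macrophages as well (given above), and their part in these values was not tested.

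The foam macrophage genes ran opposite to the members in APOE2, with 10 of 10 higher than in APOE3 and a median log2 ratio of 1.20, while in APOE4 6 of 7 were lower than in APOE3, with a median of -0.31. Spp1 was at 2742, 8.70 and 10.6 CPM in APOE2, APOE3 and APOE4, Gpnmb at 354, 0.791 and 1.33 CPM, Lgals3 at 1883, 467 and 339 CPM, Ctsd at 1639, 587 and 421 CPM and Ctsb at 2856, 2000.3 and 1661 CPM. The APOE3 and APOE4 values of Gpnmb were below the limit of 3 counts. For all genes these counts were 4288 of 9018 higher in APOE2 and 3087 of 6715 higher in APOE4. Of the inflammatory genes, 7 of 10 were higher in APOE2 and 8 of 10 in APOE4 than in APOE3, with medians of 0.30 and 0.57. Among these, Cxcl2 was at 7617, 5008 and 10051 CPM, Ccl3 at 1392, 1249.7 and 1772 CPM, Ccl4 at 5506, 5530.4 and 6729 CPM, Nfkbia at 2152, 2391 and 1992 CPM, Nlrp3 at 162, 87.8 and 304 CPM and Il1a at 59.7, 3.16 and 45.1 CPM. The MHC class II genes had medians of -0.45 and -0.22, and all 7 were lower in APOE2 than in APOE3, with Cd74 at 3944, 5441 and 4899 CPM, H2-Eb1 at 1351, 1844 and 1561 CPM, H2-Aa at 1085, 1446 and 1353 CPM, H2-Ab1 at 1059, 1332 and 1372 CPM, H2-DMa at 115, 171 and 129 CPM and Ciita at 22.7, 38.0 and 29.8 CPM. This is the direction of Stab1, Mrc1 and Folr2 in the same comparison.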

How the data were processed

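Each genotype had 1 droplet library of whole aorta from pooled mice. Cell Ranger 7.0.1 was run by the authors against mm10, and they deposited filtered matrices of raw UMI counts per gene and cell; the counting of intronic reads and the annotation release are not given in the sources used here. The 10 genes and all gene lists were chosen with earlier results of these data known.

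Cells with at least 200 genes and under 20% mitochondrial UMIs were normalised per library (sctransform 0.4.2), integrated by canonical correlation in Seurat 5.3.0 (R 4.3.3; 3000 features less the 10 members, 30 components) and clustered by the Louvain method at resolution 0.8. A cluster was named from at least 3 raised markers of 1 of 18 lists, except for smooth muscle. The smooth muscle-like clusters had at most 2 raised markers of any list. They were named because 8 or more of the 10 markers of smooth muscle were kept. Clusters C8 and C11 had both features and stayed unnamed. Clusters that kept at least 8 of 10 smooth muscle markers while markers of another type were raised were left unnamed, a rule added after the clusters were seen. Scrublet (scanpy 1.11.5) marked 3 of 26757 cells by its automatic threshold and so did not work; no doublets were removed, and leaving out the highest 5% of scores was an alternative.

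UMIs were summed per class and library to CPM. Levels carry exact Poisson 95% intervals, ratios exact conditional binomial and shares exact Clopper-Pearson ones; all cover counting error only. Ratios use genes with at least 50 UMIs in both libraries together. The ratio script was tested on simulated data. Genes other than members were named by rule: up to 3 per member by mean Pearson r (at least 0.3 in each library, genes detected in at least 5% of macrophages), up to 4 per list by level and 2 by ratio, and 5 leading genes per subcluster; marker genes and the leading genes of whole clusters are named as descriptions. A gene that this rule names is not reported here. Promoter windows were from RefSeq (GRCm38.p6) and gene positions from GENCODE vM21 (GRCm38, the same assembly as mm10).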

Additional observations from a re-analysis of the deposited data

How the results depend on the processing

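No paired analysis was possible because each genotype had 1 library, and for the same reason no replicate could be left out. With the values as reported, 2 members were past 2-fold for APOE2 against APOE3, 1 for APOE4 against APOE3 and 1 for APOE4 against APOE2, with median log2 ratios of -0.37, -0.51 and -0.03. Of 420 log2 ratios of single members recomputed under 14 settings, 343 stayed within the interval of the value reported, 74 moved outside it, and 3 changed sign where that interval was clear of 0. With clusters from merged libraries without integration, and with classes set cell by cell, 0 members were past 2-fold for APOE4 against APOE2, and in the latter the median for APOE2 against APOE3 was -0.53. Without the cells of highest Scrublet score, 1 member was past 2-fold for APOE2 against APOE3. With the mean of each cell's CPM in place of summed UMIs, members past 2-fold numbered 1, 2 and 0 in the 3 comparisons, the medians for APOE4 were -0.81 against APOE3 and -0.30 against APOE2, and Mrc1 in APOE4 against APOE2 turned to -0.086. In that setting Lyve1 in APOE2 against APOE3 came to 0.088, from 0.43 as reported. Without the Spp1-led subcluster, 0 members were past 2-fold for APOE2 against APOE3, the medians were -0.18 for APOE2 against APOE3 and -0.21 for APOE4 against APOE2, Cbr2 turned to 0.12 in the former and Mrc1 to -0.064 in the latter. The subcluster highest in Lyve1 held 44.4% of its UMIs at a resolution of 0.5, 93.2% at 0.3 and 83.4% at 1.0. The borders between subclusters also moved with the settings of the linear algebra library, which were kept fixed. The causes of these changes were not tested. Leaving out the shallow cluster C22, the cells with platelet marker UMIs or the Spp1-led subcluster were alternatives chosen after seeing the data. Levels of Timd4 were limited by depth.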
